A study of Mus musculus with 6 samples.

Results

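Blood growth factor receptors are the surface proteins through which stem cell factor, FLT3 ligand, erythropoietin, the colony-stimulating factors, and interleukin-3 (IL-3) act on blood cells. The genes described here are *Kit*, *Flt3*, *Csf1r*, *Epor*, *Csf3r*, *Csf2ra*, *Il3ra*, *Csf2rb*, and *Csf2rb2*, taken by symbol, and all 9 were found among the 26264 genes of the expression table. The samples were hematopoietic stem cells (HSCs) of untreated 8-week-old female mice, sorted from bone marrow as LSK CD150+CD48- cells. Wild-type (WT) C57Bl/6 mice (3 libraries) were compared with *Irf1-/-* mice of the B6.129S2-Irf1 tm1Mak/J strain (3 libraries), which lack IRF1 in the whole body, so differences that arise in HSCs and in their surroundings are both included. Each library came from 1 mouse, and libraries are named by genotype and replicate number (2, 3, and 4). Between 43138521 and 59658080 reads per library were assigned to genes.

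Growth factor receptors of blood cells fall into a pair of structural families. KIT, FLT3, and the CSF1 receptor carry a tyrosine kinase in their own chain and are switched on when their ligand brings receptor chains together. The receptors for erythropoietin and granulocyte colony-stimulating factor (G-CSF) are cytokine receptors without a kinase of their own, which pair as identical chains and signal through Janus kinases and STAT proteins. The receptors for granulocyte-macrophage colony-stimulating factor (GM-CSF) and IL-3 each join a ligand-specific alpha chain to a beta chain that carries the signal. In mice, CSF2RB serves the GM-CSF, IL-3, and IL-5 receptors, while CSF2RB2 is a close relative that serves IL-3. In HSCs, KIT is needed for maintenance, FLT3 is known as a feature of multipotent progenitors downstream of the HSC, and the other receptors are best known from committed lineages.

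*Irf1* itself was counted in every library, at 10122, 11120, and 12057 in WT replicates 2, 3, and 4 and at 9267, 9524, and 9287 in *Irf1-/-* replicates 2, 3, and 4 (normalized counts). All 3 *Irf1-/-* libraries lay below all 3 WT libraries, but the transcript was still abundant, and its difference was not called (log2 fold change −0.24, SE 0.0876, limma adjusted *P* = 0.17). A gene-level count does not show which exons the reads came from, so it is a weak check of the genotype labels. A normalized count is the read count of a gene divided by 1 size factor per library. A gene was called when its adjusted *P* was under 0.05 and its absolute log2 fold change, *Irf1-/-* minus WT on the log2(normalized count + 1) scale, was above 0.58.

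The HSC markers were present in every library. All 10 markers of the list were tested, and their summed normalized counts were between 110395 and 125302 in WT and between 125476 and 139124 in *Irf1-/-* libraries. *Fgd5* was the marker called, with a higher level in *Irf1-/-* HSCs (log2 fold change 0.83, SE 0.0869, limma adjusted *P* = 9.13e-05). At an unadjusted limma *P* under 0.05, 6 of the 10 were higher and 1 was lower. The lower one was *Ly6a*, which encodes the sort marker Sca-1 and was between 6908 and 7692 in WT and between 4974 and 6047 in *Irf1-/-* libraries (log2 fold change −0.43, SE 0.0944, limma adjusted *P* = 0.0245), under the fold change threshold. *Slamf1*, which encodes the sort marker CD150, was higher in every *Irf1-/-* library, between 2848 and 3198 in WT and between 3412 and 3823 in *Irf1-/-* libraries (log2 fold change 0.24, SE 0.0939, limma adjusted *P* = 0.217), and was not called. *Procr* was also higher in every *Irf1-/-* library and under the fold change threshold (log2 fold change 0.52, SE 0.0989, limma adjusted *P* = 0.0112). Of the 8 markers of multipotent and lymphoid-primed progenitors, none was called by limma, edgeR, or DESeq2, and 1 in each direction had an unadjusted *P* under 0.05. *Cd34* was the most abundant of them. *Cd48*, whose product was used to gate cells out, was between 256.7 and 430.7 in the 6 libraries.

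WT replicate 4 stood apart in transcripts of mature neutrophils. The secondary granule genes *Ltf* and *Ngp* were at 2032 and 2535 normalized counts in this library, against at most 64.0 and 126.6 in any other. *S100a8*, *S100a9*, *Camp*, *Lcn2*, and *Ly6g* were also over 4 times higher in it than in any other library, making 7 of the 12 genes of the granulocyte list. The other genes of this list (*Mpo*, *Elane*, *Prtn3*, *Ctsg*, and *Ms4a3*), which are made mainly at earlier stages, were not highest there. The summed list was 14905 in WT replicate 4 and between 5285 and 10943 in the other libraries, with *Prtn3* its most abundant gene. None of the 11 tested genes was called with all libraries by limma, edgeR, or DESeq2 (1 had an unadjusted *P* under 0.05, higher in *Irf1-/-*), and 2 were called higher in *Irf1-/-* without this library. The median log2 fold change of the list was −0.37 with this library and 0.77 without it. For each receptor gene, chain ratio, and called pathway gene, the value without WT replicate 4 is therefore also given.

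Of the 9 receptor genes, all of which passed the filter on low values, 3 were called higher in *Irf1-/-* HSCs (*Flt3*, *Csf2rb*, and *Csf2rb2*), against 0.96% of the 17404 genes tested. None was called lower by limma, edgeR, or DESeq2, against 0.954% of all genes. At an unadjusted limma *P* under 0.05, 4 were higher and none was lower, where 2863 of all 17404 genes passed in either direction. The lowest of those *P* values among genes with a lower mean was that of *Epor* (limma unadjusted *P* = 0.0503), and it fell under 0.05 in 7 of the alternatives, edgeR, DESeq2, and the fit without WT replicate 4 among them. In 4 receptor genes every *Irf1-/-* library lay above every WT library, which was the case for 10.6% of all tested genes. The reverse, every *Irf1-/-* library below every WT library, was found for 0 of the 9 and for 9.27% of all tested genes. The median log2 fold change was 0.40 over the 9 receptor genes and −0.0028 over all tested genes. The same 3 genes were called without WT replicate 4, where the median of the receptor genes was 0.46. Bulk RNA-seq of sorted cells cannot tell a change in the share of cells that express a receptor from a change in the RNA per cell.

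*Kit* encodes the receptor for stem cell factor, and its product was one of the proteins used to sort these cells, so a high level is part of how the samples were made. Its normalized counts were 83185, 84043, and 80517 in WT replicates 2, 3, and 4 and 77902, 88715, and 79909 in *Irf1-/-* replicates 2, 3, and 4. The *Irf1-/-* libraries held both the lowest and the highest value. The log2 fold change was −0.0092 with a 95% interval from −0.22 to 0.20 (limma adjusted *P* = 0.981), so a difference as large as the threshold of 0.58 lies outside the interval. The sign of so small a value changed with the scaling (0.17 after quantile normalization, 0.0069 with TMM), and it was −0.027 without WT replicate 4.

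*Flt3* encodes the receptor for FLT3 ligand. Its normalized counts were 2656, 1730, and 2865 in WT replicates 2, 3, and 4 and 3442, 4476, and 3460 in *Irf1-/-* replicates 2, 3, and 4. The groups did not overlap, with WT replicate 3 lowest and *Irf1-/-* replicate 3 highest. Its level was 1.59-fold higher in *Irf1-/-* HSCs (log2 fold change 0.67, SE 0.164, limma adjusted *P* = 0.0407). Without WT replicate 4 the log2 fold change was 0.81 (limma adjusted *P* = 0.0145). The call was lost without WT replicate 3 (0.45, limma adjusted *P* = 0.117), without *Irf1-/-* replicate 2 (0.74, adjusted *P* = 0.0922), replicate 3 (0.55, adjusted *P* = 0.127), or replicate 4 (0.73, adjusted *P* = 0.0747), and in limma without an intensity trend (adjusted *P* = 0.358). Over all its alternatives the adjusted *P* ran from 0.00196 to 0.358.

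*Csf1r* encodes the receptor for macrophage colony-stimulating factor (CSF1) and IL-34, and was low. Its normalized counts were 195.03, 385.4, and 302.3 in WT replicates 2, 3, and 4 and 328.3, 251.5, and 124.6 in *Irf1-/-* replicates 2, 3, and 4. The libraries of each genotype were spread over a wide range and the groups overlapped. The log2 fold change was −0.38 with a 95% interval from −1.10 to 0.34 (limma adjusted *P* = 0.66), which leaves room for a difference of either sign. Without *Irf1-/-* replicate 4 it was 0.0205, and without WT replicate 4 it was −0.33. The monocyte and macrophage list, in which *Lyz2* was the most abundant gene, had a summed level between 26011 and 33029 in WT and between 29021 and 34308 in *Irf1-/-* libraries. None of its 12 genes was called by limma or edgeR, while DESeq2 called 1 in each direction, and 1 in each direction had an unadjusted limma *P* under 0.05.

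*Epor* encodes the erythropoietin receptor, which is best known from erythroid progenitors. Counts of *Epor* were 2269, 2510, and 1794 in WT replicates 2, 3, and 4 and 1999, 1594, and 1774 in *Irf1-/-* replicates 2, 3, and 4. WT replicates 2 and 3 were above all other libraries, while WT replicate 4 lay within the *Irf1-/-* range. The log2 fold change was −0.28 with a 95% interval from −0.57 to 0.00035 and was not called (limma adjusted *P* = 0.304). It was −0.42 without WT replicate 4 (limma adjusted *P* = 0.062) and −0.18 without WT replicate 3 (adjusted *P* = 0.696). Leaving out *Irf1-/-* replicate 3 gave −0.20 (limma adjusted *P* = 0.514). Of the erythroid markers, 8 of 12 were tested, and *Klf1* and *Car1* were called lower in *Irf1-/-* HSCs by limma, while edgeR and DESeq2 called *Klf1* and not *Car1*. The summed erythroid list, dominated by *Car2*, was between 96260 and 103173 in WT and between 72211 and 86323 in *Irf1-/-* libraries. *Hba-a1*, *Hba-a2*, *Hbb-bs*, and *Hbb-bt* were listed at 0 in all 6 libraries, and whether the counting passed over reads on them is not known, so these zeros are not read as absence. Among 7 tested megakaryocyte markers, *Pf4* and *Gp1bb* were called lower (3 markers without WT replicate 4), and the list, in which *Itga2b* was most abundant, summed to between 56863 and 71539 in WT and between 33810 and 51541 in *Irf1-/-* libraries. The part of these markers in the *Epor* values was not tested.

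*Csf3r* encodes the G-CSF receptor, which drives the formation of neutrophils and the mobilization of HSCs. Its normalized counts were 6448, 5676, and 4915 in WT replicates 2, 3, and 4 and 7755, 8841, and 8329 in *Irf1-/-* replicates 2, 3, and 4. The groups did not overlap, and WT replicate 4, the library with the neutrophil transcripts, had the lowest value. The log2 fold change was 0.56 (SE 0.104, 95% interval from 0.33 to 0.78, limma adjusted *P* = 0.0102), which passed the threshold on the adjusted *P* but lay just under that on the fold change, so *Csf3r* was not called. Without WT replicate 4 the log2 fold change was 0.46 (limma adjusted *P* = 0.0173). It passed both thresholds after quantile normalization (0.60), without WT replicate 2 (0.65), and without *Irf1-/-* replicate 2 (0.60), and over its alternatives the adjusted *P* ran from 5.93e-05 to 0.238.

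*Csf2ra* encodes the alpha chain of the GM-CSF receptor. The libraries held 2642, 2567, and 2741 in WT replicates 2, 3, and 4 and 2624, 2922, and 3235 in *Irf1-/-* replicates 2, 3, and 4 (normalized counts). The WT libraries lay close together, and *Irf1-/-* replicate 2 fell within their range. The log2 fold change was 0.14 with a 95% interval from −0.079 to 0.36 (limma adjusted *P* = 0.573), which does not reach 0.58. It was 0.16 without WT replicate 4, 0.064 without *Irf1-/-* replicate 4, and 0.21 without *Irf1-/-* replicate 2. *Il3ra* encodes the alpha chain of the IL-3 receptor and was the gene with the lowest mean in WT, with normalized counts of 160.5, 132.98, and 287.2 in WT replicates 2, 3, and 4 and 295.3, 156.4, and 308.3 in *Irf1-/-* replicates 2, 3, and 4. The groups overlapped, with 1 high library in WT and 1 low library in *Irf1-/-*, and as few as 118 reads were counted in a library. Its log2 fold change was 0.40 with a 95% interval from −0.29 to 1.10 (limma adjusted *P* = 0.622), too wide to tell a difference of the size seen in the beta chains from none. It moved with single libraries, to 0.73 without WT replicate 4 (limma adjusted *P* = 0.203), 0.72 without *Irf1-/-* replicate 3, and 0.17 without WT replicate 3.

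*Csf2rb* encodes the common beta chain. Its normalized counts were 1908, 1501, and 2231 in WT replicates 2, 3, and 4 and 3112, 2738, and 4020 in *Irf1-/-* replicates 2, 3, and 4. The groups did not overlap, with WT replicate 3 lowest and *Irf1-/-* replicate 4 highest. The level was 1.75-fold higher in *Irf1-/-* HSCs (log2 fold change 0.81, SE 0.155, limma adjusted *P* = 0.0114). Without WT replicate 4 the log2 fold change was 0.94 (limma adjusted *P* = 0.00546). The call was lost without *Irf1-/-* replicate 4 (0.65, limma adjusted *P* = 0.0535) and in limma without a trend (adjusted *P* = 0.273), and over its alternatives the adjusted *P* ran from 2.11e-05 to 0.273.

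*Csf2rb2* had normalized counts of 488.8, 312.2, and 500.2 in WT replicates 2, 3, and 4 and of 917.9, 602.3, and 777.5 in *Irf1-/-* replicates 2, 3, and 4. The groups did not overlap, and WT replicate 3 was again lowest. The level was 1.78-fold higher in *Irf1-/-* HSCs (log2 fold change 0.83, SE 0.208, limma adjusted *P* = 0.0457). Without WT replicate 4 the log2 fold change was 0.95 (limma adjusted *P* = 0.027). The call was lost without WT replicate 2 (0.93, limma adjusted *P* = 0.0503) or replicate 3 (0.61, adjusted *P* = 0.172), without *Irf1-/-* replicate 2 (0.69, adjusted *P* = 0.204) or replicate 4 (0.81, adjusted *P* = 0.147), after quantile normalization (0.78, adjusted *P* = 0.0556), and in limma without a trend (adjusted *P* = 0.317). Over its alternatives the adjusted *P* ran from 0.00219 to 0.317. Both beta chain genes are also in a list of genes that the study selected from these same libraries, so their direction here is not independent of that selection.

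**Figure D1:**
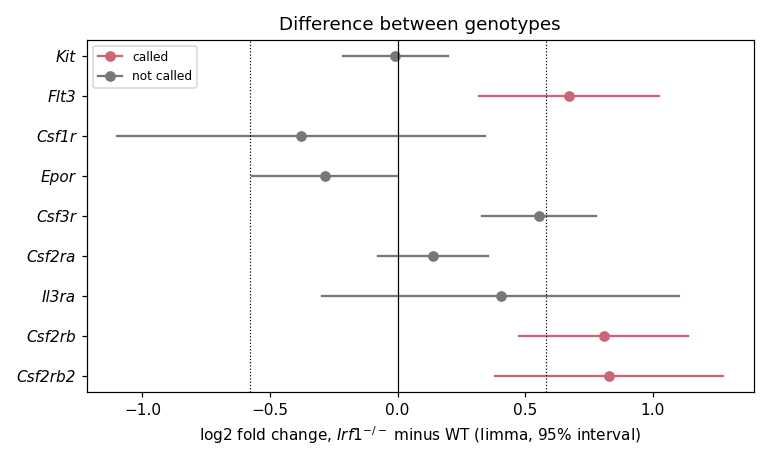
Log2 fold change of each receptor gene between *Irf1-/-* and WT HSCs (x axis) with its 95% interval from limma, n = 3 libraries per genotype. Red marks called genes, and dotted lines mark 0.58 on either side of 0. *Csf3r* lies just inside the line at 0.56.

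The coding sequences of *Csf2rb* (2691 bases) and *Csf2rb2* (2637 bases) are so alike that some reads may not tell them apart. In the GENCODE vM1 transcripts, 95.3% of 2629 aligned coding bases were identical, and the longest identical run was 242 bases. Of all windows of 100 bases, 286 of 2592 in *Csf2rb* and 286 of 2538 in *Csf2rb2* occurred unchanged in the other gene. The aligned stretch of 120 bases with the most differences shows where reads can separate them, with the 22 differing bases in capitals (coding bases 309 to 428 of *Csf2rb* and 312 to 431 of *Csf2rb2*).
Csf2rb: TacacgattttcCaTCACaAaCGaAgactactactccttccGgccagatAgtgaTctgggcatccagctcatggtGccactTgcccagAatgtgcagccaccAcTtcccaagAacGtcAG
Csf2rb2: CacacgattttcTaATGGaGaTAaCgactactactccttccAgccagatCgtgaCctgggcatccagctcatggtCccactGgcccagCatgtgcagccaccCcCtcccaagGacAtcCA
How reads common to both were assigned, or whether they were left out, was not tested. The values of the separate genes are uncertain for this reason, and so is their sum if such reads were left out. The sum was 2396, 1813, and 2731 in WT replicates 2, 3, and 4 and 4030, 3340, and 4797 in *Irf1-/-* replicates 2, 3, and 4, again without overlap. Fitted in limma as 1 gene, an alternative added after the data were seen, the sum had a log2 fold change of 0.81 (SE 0.152, limma adjusted *P* = 0.00985).

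Chain balance was compared with exact two-sided permutation tests, in which 3 against 3 libraries cannot give a *P* below 0.1, with adjustment over 4 values. The log2 sum of both beta chains was 11.16 ± 0.302 in WT and 11.97 ± 0.261 in *Irf1-/-* (SD, n = 3 each, exact permutation *P* = 0.1, adjusted *P* = 0.2). The log2 ratio of *Csf2rb2* to *Csf2rb* was −2.13 ± 0.152 in WT and −2.10 ± 0.312 in *Irf1-/-* (SD, n = 3 each, exact permutation *P* = 1.0), so the genotype difference was far smaller than the spread between libraries. *Csf2rb2* made up between 17.2% and 20.4% of the sum in WT and between 16.2% and 22.8% in *Irf1-/-* libraries. The log2 ratio of *Csf2rb* to *Csf2ra*, the GM-CSF alpha chain, was −0.51 ± 0.241 in WT and 0.16 ± 0.219 in *Irf1-/-* (SD, n = 3 each, exact permutation *P* = 0.1, adjusted *P* = 0.2), with all *Irf1-/-* libraries above all WT libraries. Against *Il3ra*, the log2 ratio of *Csf2rb* was 3.33 ± 0.332 in WT and 3.74 ± 0.365 in *Irf1-/-* (SD, n = 3 each, exact permutation *P* = 0.3, adjusted *P* = 0.4), and the groups overlapped. The differences without WT replicate 4 were 0.94 for the sum, 0.0083 for *Csf2rb2* against *Csf2rb*, 0.78 for *Csf2rb* against *Csf2ra*, and 0.21 for *Csf2rb* against *Il3ra*.

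To compare levels between genes, normalized counts were divided by the length of the longest protein-coding transcript of each gene in GENCODE vM1. On this scale *Kit* was far above the rest, at 15757 ± 351 normalized counts per kilobase in WT (SD, n = 3). *Csf3r* followed at 1492 ± 201 and *Csf2ra* at 1433 ± 47.2 per kilobase, and their WT ranges overlapped. *Epor* (1198 ± 199), *Flt3* (612 ± 153), and *Csf2rb* (395 ± 76.8) came next, and the WT ranges of *Flt3* and *Csf2rb* overlapped while those of *Epor* and *Flt3* did not. *Il3ra* (139 ± 59.02), *Csf2rb2* (94.0 ± 22.9), and *Csf1r* (62.6 ± 20.3) were lowest, each overlapping with the next. The order of the means was the same in *Irf1-/-* libraries, where *Epor* at 978 ± 111 and *Flt3* at 960 ± 150 per kilobase overlapped and *Csf3r* at 2182 ± 143 stood clear of *Csf2ra* at 1583 ± 165. With the coding length in place of the transcript length, *Csf3r* and *Csf2ra* changed places, as did *Il3ra* and *Csf2rb2*. The single transcript model per gene limits this order, since the transcripts used in these cells were not measured.

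Of the 9 ligand genes, 4 passed the filter on low values. *Flt3l*, the most abundant, was between 1095 and 1381 normalized counts in WT and between 860.7 and 965.8 in *Irf1-/-* libraries, lower in each *Irf1-/-* library but not called (log2 fold change −0.39, SE 0.128, limma adjusted *P* = 0.128). *Csf1* was between 607.3 and 912.5 in the 6 libraries (log2 fold change 0.016, limma adjusted *P* = 0.981), *Kitl* between 21.8 and 49.5, and *Il34* between 6.91 and 20.4. *Epo*, *Csf2*, and *Il5* reached at most 12 reads in a library and *Csf3* at most 2. *Il3* was listed at 0 in all libraries, where 3 reads, the limit that a count of 0 allows, would be between 2.47 and 3.38 normalized counts. No ligand was called by limma, edgeR, or DESeq2, and *Flt3l* was the 1 ligand with an unadjusted limma *P* under 0.05.

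Among 12 other receptors of the same families, 1 was called higher and 0 lower. Of all tested genes, 0.96% were called higher and 0.954% lower, which holds beside the counts of every other list too. *Fgfr1*, a fibroblast growth factor receptor, was at 915.9, 833.9, and 983.3 normalized counts in WT replicates 2, 3, and 4 and at 1457, 1383, and 1370 in *Irf1-/-* replicates 2, 3, and 4 (log2 fold change 0.63, SE 0.118, limma adjusted *P* = 0.0105). The groups did not overlap. Its call was lost without WT replicate 3 (0.56) and without *Irf1-/-* replicate 2 (0.60, limma adjusted *P* = 0.0548), and was kept without WT replicate 4 (0.68). Of this list, edgeR called 1 higher and DESeq2 2, and neither called any lower. At an unadjusted limma *P* under 0.05, 5 were higher and 0 lower. The median log2 fold change of the list was 0.22, and 0.33 without WT replicate 4. Every *Irf1-/-* library lay above every WT library in 4 of the 12 genes, against 10.6% of all tested genes.

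The proximal signaling genes, which encode kinases such as JAK2, adaptors, STAT5, and phosphatidylinositol 3-kinase subunits, held no called gene among 24 by limma, edgeR, or DESeq2, with a median log2 fold change of 0.013 (−0.046 without WT replicate 4). At an unadjusted limma *P* under 0.05, 5 were higher and 1 was lower. Every *Irf1-/-* library lay above every WT library in 6 of the 24 genes, against 10.6% of all tested genes. The reverse was found in 1, against 9.27%. *Gab1*, an adaptor, was between 2462 and 2765 in WT and between 3432 and 4090 in *Irf1-/-* libraries. It lay under the fold change threshold (log2 fold change 0.54, SE 0.0989, limma adjusted *P* = 0.00878). The count called higher by limma was 2 without *Irf1-/-* replicate 3, 1 without WT replicate 2, and 1 with no threshold on the fold change. *Akt1*, a kinase of the phosphatidylinositol 3-kinase pathway, was their most abundant gene, between 28758 and 33281 normalized counts.

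The negative regulators of the receptors held 1 called gene of 16, *Socs3*, a feedback inhibitor known to bind the G-CSF receptor. It was at 693.7, 567.98, and 891.8 normalized counts in WT replicates 2, 3, and 4 and at 1562, 1724, and 1541 in *Irf1-/-* replicates 2, 3, and 4, without overlap. Its log2 fold change was 1.19 (SE 0.154, limma adjusted *P* = 0.000737), and 1.36 without WT replicate 4. *Ptpn6*, the phosphatase SHP-1, was the most abundant gene of the list, between 25230 and 29815, with a log2 fold change of 0.068 (limma adjusted *P* = 0.791). The *Ptpn6* value was 0.020 when *Irf1-/-* replicate 3 or 0.030 when WT replicate 4 was left out. It was 0.115 without *Irf1-/-* replicate 2, 0.111 without WT replicate 3, and 0.172 after quantile normalization (limma adjusted *P* = 0.0653). The median of the list was 0.094, and 0.061 without WT replicate 4. edgeR and DESeq2 also called 1 of the 16 higher, and none was called lower by limma, edgeR, or DESeq2. At an unadjusted limma *P* under 0.05, 4 were higher and 1 was lower.

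Of 18 textbook STAT5 target and growth factor response genes, 2 were called higher, *Socs3* and *Pim2*, and none lower by limma, edgeR, or DESeq2. edgeR called 2 higher and DESeq2 3, and 5 were higher and 1 lower at an unadjusted limma *P* under 0.05. The lower one was *Bcl2*, between 6479 and 7595 in WT and between 4784 and 5546 in *Irf1-/-* libraries. It lay under the fold change threshold (log2 fold change −0.41, SE 0.0944, limma adjusted *P* = 0.0291). *Pim2* encodes a survival kinase and was at 7413, 4446, and 5907 normalized counts in WT replicates 2, 3, and 4 and at 12299, 15254, and 14531 in *Irf1-/-* replicates 2, 3, and 4. All *Irf1-/-* libraries lay well above the WT libraries (log2 fold change 1.27, SE 0.148, limma adjusted *P* = 0.000264), and the value was 1.28 without WT replicate 4. *Myc*, the most abundant gene of this list, was between 21152 and 30352 and had a log2 fold change of 0.073 (limma adjusted *P* = 0.842). The median of the list was 0.11, and 4 of its 18 genes (*Cish*, *Socs1*, *Socs2*, and *Socs3*) are also in the list of negative regulators.

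Of 15 tested transcription factors known to act on the receptor genes, 1 was called in each direction, as also by edgeR and DESeq2. At an unadjusted limma *P* under 0.05, 3 were higher and 3 were lower. *Gfi1*, a repressor that acts in HSCs and in neutrophil formation, was at 846.8, 735.9, and 546.5 normalized counts in WT replicates 2, 3, and 4 and at 1630, 1383, and 1058 in *Irf1-/-* replicates 2, 3, and 4 (log2 fold change 0.94, SE 0.182, limma adjusted *P* = 0.0126). The groups did not overlap, but the call was lost without *Irf1-/-* replicate 2 (0.79, limma adjusted *P* = 0.0779), and kept without WT replicate 4 (0.76, adjusted *P* = 0.0229). *Klf1*, an activator of erythroid genes, was at 1396, 1290, and 1182 in WT replicates 2, 3, and 4 and at 900.8, 569.5, and 923.9 in *Irf1-/-* replicates 2, 3, and 4 (log2 fold change −0.72, SE 0.172, limma adjusted *P* = 0.0361). Its call was lost without WT replicate 2 (−0.66, limma adjusted *P* = 0.117) or 3 (−0.72, limma adjusted *P* = 0.109). Leaving out *Irf1-/-* replicate 2 (−0.83, limma adjusted *P* = 0.0583) or 3 (−0.50) also ended it, while it held without WT replicate 4 (−0.78, adjusted *P* = 0.0324). *Gata1* was between 4557 and 8221 in WT and between 3102 and 4168 in *Irf1-/-* libraries, without overlap. It was not called with all libraries (log2 fold change −0.66, SE 0.174, limma adjusted *P* = 0.0575). Of the 15 factors, 3 were called lower without WT replicate 4. *Lmo2* was the most abundant, between 47449 and 56802 normalized counts. Over the 6 pathway lists together, 4 of 85 tested genes were called higher and 1 lower, against 0.96% and 0.954% of all tested genes.

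For each receptor gene, the tested genes most like it over the 6 libraries were found by Pearson's r of log2(normalized count + 1), as a description over few libraries that share genotype and library differences. *N4bp2* (r = 0.998) and *Rnf125* (0.997) were most like *Csf2rb*, and *Parp8* (0.994) and *Cspg4b* (0.993) most like *Csf2rb2*. *Vnn1* (0.996) followed *Flt3* closely, and *Trim62* (0.993) and *Mib2* (0.992) followed *Csf3r*. For *Kit* these were *Vasp* (0.990) and *Ergic3* (0.989), for *Epor* *Noct* (0.994) and *Lsm11* (0.992), and for *Csf1r* *Rtn4r* (0.997) and *Haus3* (0.995). For *Csf2ra* they were *5033417F24Rik* (0.993) and *Tceal1* (0.988), and for *Il3ra* *Ankrd55* (0.995) and *Col5a3* (0.993). *Rnf125*, for example, was between 5121 and 6009 normalized counts in WT and between 6783 and 7952 in *Irf1-/-* libraries, so it was ordered by genotype as *Csf2rb* was.

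RefSeq promoter sequences (GRCm38.p6) were searched for 7 of the 9 genes. No entry was found for *Csf2rb*. Entries on the chromosome of *Csf1r* were left out of the search, so its promoter was not searched. The 250 bases before the start were searched on both strands for the letters of an IRF motif (GAAA, any 2 bases, and GAAA), a STAT motif (TTC, any 3 bases, and GAA), a PU.1 motif (GAGGAA), and a GATA motif (GATAAG). The IRF letters occurred in 2.98%, the STAT letters in 7.02%, GAGGAA in 23.3%, and GATAAG in 6.55% of all 32851 promoters. The IRF letters were in none of the 7 genes' windows. The STAT letters were in that of *Csf2rb2*, GATAAG in those of *Csf2rb2* and *Epor*, and GAGGAA in those of *Kit*, *Csf2ra*, *Csf2rb2*, and *Csf3r*. The windows of *Csf2rb2* (chr15:78305722-78305971, minus strand) and *Flt3* (chr5:147400490-147400739, minus strand) and 30 bases around the match of *Csf3r* (chr4:126024561-126024590, plus strand) are shown because every *Irf1-/-* library was above every WT library for these genes, with matches in capitals. In *Csf2rb2* the capitals are, from the left, GAGGAA and GATAAG read on the opposite strand and the STAT letters.
Csf2rb2: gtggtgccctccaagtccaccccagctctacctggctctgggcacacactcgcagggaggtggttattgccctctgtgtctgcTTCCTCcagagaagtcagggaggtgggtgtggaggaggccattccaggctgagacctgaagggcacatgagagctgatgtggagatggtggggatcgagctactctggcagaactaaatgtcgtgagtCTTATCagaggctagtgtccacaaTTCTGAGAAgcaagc
Flt3: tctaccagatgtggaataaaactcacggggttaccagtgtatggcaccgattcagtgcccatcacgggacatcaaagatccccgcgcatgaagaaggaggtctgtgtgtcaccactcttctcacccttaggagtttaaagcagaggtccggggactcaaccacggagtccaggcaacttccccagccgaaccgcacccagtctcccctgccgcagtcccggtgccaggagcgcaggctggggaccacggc
Csf3r: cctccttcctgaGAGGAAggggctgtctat
A match is a stretch of letters and not a measured binding site, and no match says only that these letters were not in this window.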

How the data were processed

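The authors prepared cDNA with SMART-Seq v4 and libraries with Nextera XT, without molecular identifiers, so limits set by read counts cover counting error only. The submitters' processing notes name Trim Galore, HISAT2, and the mm39 build. The deposited values are a signal, the reads of each gene divided by a DESeq2 size factor per library. Of all values, 100.0% were whole multiples of the library's smallest step (tolerance 0.01), so whole reads were recovered for the count models. Genes with a mean of at least 10 were tested with limma 3.58.1 in R 4.3.3 (trend, no block) on log2(normalized count + 1), with Benjamini-Hochberg adjustment over all genes. edgeR 4.0.16, DESeq2 1.42.0, other scalings, pseudocounts, and filters, a replicate block, and leaving out each library were alternatives. Chain ratios used exact permutation tests. Transcripts came from GENCODE vM1 (NCBIM37) and promoters from RefSeq. Members and lists were chosen with earlier results of these data known. Genes named are the members, *Irf1*, ligands, called genes of each pathway list, the most abundant gene of each list, and the 2 genes most like each member, apart from some not reported here. All further marker genes in the text, called or not, *Gab1*, *Bcl2*, *Gata1*, and the genes shared between lists were named after their values were seen. Libraries of a genotype differed by more than sampling noise (chi-square per gene at least 16.0), and that they are separate mice rests on the labels.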

Additional observations from a re-analysis of the deposited data

How the results depend on the processing

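With 3 libraries per genotype, 1 library could end a call, and *Il3ra* and *Csf1r* had wide intervals. The count of receptor genes called higher (3) was 0 in limma without a trend and 0 at an absolute log2 fold change above 1. It was 4 with no threshold on the fold change. With 1 library left out it was between 0 and 3 (1 without WT replicate 3, 0 without *Irf1-/-* replicate 4). At an unadjusted limma *P* under 0.05, 4 were higher in each of the settings that gave 0 or 1. edgeR and DESeq2 on the recovered reads each called 3. Over all genes, 167 higher and 166 lower calls became 7 and 33 without a trend, 301 and 260 with no threshold on the fold change, and 54 and 84 above 1. DESeq2 called 295 higher and 209 lower, and edgeR 165 higher and 161 lower. With 1 library left out, 83 to 304 were higher and 105 to 265 lower, both highest without WT replicate 4. Pathway genes called higher (4) were 0 without a trend, 2 above 1, and 2 to 6 with a library left out; those called lower (1) were 2 with pseudocount 10, a mean of at least 50, or no fold threshold, 0 without a trend or above 1, and 0 to 3 with a library left out. Some differences changed sign. *Kit* was 0.17 after quantile normalization, 0.0069 with TMM, and −0.066 to 0.028 with a library left out. *Csf1r* ran from −0.68 to 0.0205, *Kitl* from −0.46 to 0.094, *Csf1* from −0.18 to 0.12, *Akt1* from −0.076 to 0.029, *Myc* from −0.061 to 0.20, *Lmo2* from −0.12 to 0.0061, and the log2 ratio of *Csf2rb2* to *Csf2rb* from −0.15 to 0.16 with a library left out. After quantile normalization *Csf1* was −0.019 and *Akt1* 0.11. The cause of these shifts was not tested. Whether replicate numbers pair the samples could not be decided from so few libraries. Deviations of same-numbered libraries had correlations of −0.094, 0.246, and 0.147, and those of differently numbered libraries ran from −0.326 to 0.251. Not every library was most like its own number. With the replicate block, 219 genes were called higher and 196 lower, 3 receptor genes among the former, and the *Csf2rb* adjusted *P* was 0.00076 by limma.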

Other observations

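The mast cell, basophil, and eosinophil list summed to between 402.3 and 481.2 normalized counts, with *Cpa3* its most abundant gene and *Cma1* listed at 0 in all libraries. The dendritic cell list, led by *Bst2*, summed to between 3491 and 4581, and the B, T, and NK cell list, led by *Cd79b*, to between 5784 and 6902. Of these lists, 5 of 10 mast cell, basophil, and eosinophil genes, 8 of 8 dendritic cell genes, and 8 of 12 lymphocyte genes were tested. Among the untested, *Epx*, an eosinophil gene picked out after its values were seen, reached at most 17 reads in a library. *Epx* was between 0 and 1.08 normalized counts in WT and between 8.53 and 14.7 in *Irf1-/-* libraries. *Prg2*, a tested gene of the same list, did not share this difference. Its groups overlapped, with means of 25.4 in WT and 25.1 in *Irf1-/-* libraries (log2 fold change 0.0056). None of the tested genes was called by limma, edgeR, or DESeq2, and 0 mast cell, 0 dendritic cell, and 1 lymphocyte gene had an unadjusted limma *P* under 0.05. The stromal and endothelial list, led by *Pecam1*, was between 5468 and 6406 in WT and between 7154 and 8399 in *Irf1-/-* libraries. None of its 8 genes was called by limma, edgeR, or DESeq2, although 3 had an unadjusted limma *P* under 0.05, all higher in *Irf1-/-*, and its median log2 fold change was 0.51. Without WT replicate 4, 1 of its genes was called higher. *Emcn* was between 1280 and 1461 in WT and between 2011 and 2224 in *Irf1-/-* libraries. With all libraries it lay just under the fold change threshold (log2 fold change 0.576, SE 0.107, limma adjusted *P* = 0.0101). The stromal genes *Cxcl12*, *Lepr*, *Col1a1*, and *Pdgfra* were low, at most 116.2 normalized counts in a library, and their groups overlapped.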
